A study of Homo sapiens with 5 samples.

Results

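The transcription factor NRF2 (gene NFE2L2) and the enzymes that detoxify oxidants, electrophiles and foreign compounds were followed across 5 exon arrays of 2 human lung cancer cell lines. The gene set was chosen by name: 41 genes comprising NRF2, its repressor KEAP1, well-known NRF2 targets, and further xenobiotic enzymes and transporters. A gene counted as measured when a feature of the array (a transcript cluster, which summarises probes over the exons of a gene) was annotated with that gene's symbol alone. This held for 29 of the 41 genes, out of 14232 genes on the array with a feature of their own, and each of the 29 had 1 such feature. Of the other 12, AKR1B1 was not matched to a named feature, and 11 shared a feature with another gene and received no value: NFE2L2, NQO1, TALDO1, AKR1B10, AKR1C1, AKR1C2, AKR1C4, CBR3, UGT1A6, CYP4F11 and CYP4F3. NRF2 itself and NQO1, the quinone reductase most often used as its readout, were therefore not analysed here.

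The arrays were A549 with NEDD9 hairpin 1 (1 array), A549 with NEDD9 hairpin 2 (1 array), the A549 control (1 array), CRL-5907 with NEDD9 overexpression (1 array) and the CRL-5907 control (1 array). NEDD9 is a scaffold protein of focal adhesions. A549 is a lung adenocarcinoma line which, per the submitters, lacks functional LKB1 and has raised NEDD9. In CRL-5907, another lung cancer line, LKB1 is wild type and NEDD9 low according to the same source. The labels do not say what construct, if any, the control cells carried, nor whether the hairpin and overexpressing cells were clones or pools. The description of the hairpin 2 array names another gene than its title does, and the title was followed. The hairpins are 2 different constructs and were treated as 2 replicates of knockdown. No other group had a replicate, and nothing states separate cultures, so the spread given below may be technical.

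Under basal conditions KEAP1 holds NRF2 in the cytoplasm and directs it to ubiquitination and breakdown. When oxidants or electrophiles modify KEAP1, or when KEAP1 is mutated, NRF2 escapes, enters the nucleus, pairs with small MAF proteins and binds antioxidant response elements in its target genes. Lung adenocarcinomas often carry KEAP1 mutations. A549 is itself a KEAP1-mutant line in which NRF2 is constitutively active, a state that was not checked here. The KEAP1 and NRF2 state of CRL-5907 was not checked either, so it cannot be taken as a line with normal NRF2.

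Some of the genes carry the letters of an antioxidant response element close to their start. The core searched was TGACNNNGC on both strands, in RefSeq windows of 300 bases (GRCh38.p14) that run from 250 bases before to 50 after a gene's start. Windows were at hand for 20 of the 29 genes, and 9 of these 20 held the core: ABCG2, TXNRD1, KEAP1, GCLM, PIR, GPX2, EPHX1, PGD and CBR1. By window this was 32.26% of 31, against 13.35% of all 35116 windows, a description of short and degenerate letters that does not show binding. The 6 genes whose sequences follow are those of the 9 with the largest difference in any comparison, 5′ to 3′ on the gene's own strand, with every match in capitals.
ABCG2, chr4:88159271-88159299, minus strand: gcagcgcttgTGACTGGGCaacctgtgcg
TXNRD1, upstream window, chr12:104215635-104215779, plus strand: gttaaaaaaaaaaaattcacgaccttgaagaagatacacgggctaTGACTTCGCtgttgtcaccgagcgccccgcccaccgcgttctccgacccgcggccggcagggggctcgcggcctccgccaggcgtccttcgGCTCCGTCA
TXNRD1, downstream window, chr12:104286885-104286983, plus strand: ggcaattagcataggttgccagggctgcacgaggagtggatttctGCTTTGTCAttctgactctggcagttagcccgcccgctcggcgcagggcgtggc
KEAP1, chr19:10502772-10502870, minus strand: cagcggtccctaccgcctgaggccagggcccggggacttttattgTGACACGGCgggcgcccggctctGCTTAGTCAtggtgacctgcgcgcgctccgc
GCLM, chr1:93909431-93909509, minus strand: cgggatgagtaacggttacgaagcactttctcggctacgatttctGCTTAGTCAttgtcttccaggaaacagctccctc
PIR, chrX:15493289-15493317, minus strand: gccgcgaagcGCTGAGTCAcggtgaggct
GPX2, chr14:64942814-64942912, minus strand: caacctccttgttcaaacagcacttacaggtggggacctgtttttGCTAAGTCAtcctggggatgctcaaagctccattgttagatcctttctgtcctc
KEAP1 and GCLM share the match GCTTAGTCA letter for letter. PIR was the 1 measured gene whose match was the full form TGACTCAGC (here on the opposite strand), which overlaps the AP-1 letters TGACTCA and was present in 0.561% of all windows.

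All 5 arrays looked alike in distribution, with medians over named features of 5.69 to 5.85 on the log2 scale. NEDD9 followed the labels: its log2 level was 8.35 with hairpin 1 and 8.52 with hairpin 2, against 8.94 on the A549 control, and 9.49 with overexpression, against 4.66 on the CRL-5907 control. The knockdown was thus partial. Of 7 epithelial carcinoma markers, all 7 were above the median of at least 1 array, with summed log2 levels of 60.8 to 61.7 on the A549 arrays and 62.0 to 62.6 on the CRL-5907 arrays. These sums hide opposite differences between the lines: limma called KRT7, KRT8, KRT18, KRT19 and CDH1 higher in A549 and MUC1 and EPCAM lower, with MUC1 8.87-fold and EPCAM 2.71-fold lower on the A549 control than on the CRL-5907 control. The 3 measured alveolar markers (SFTPB, SFTPC and SFTPD) were below the median on every array, and so were 4 of 6 leukocyte, 6 of 7 fibroblast and 5 of 6 endothelial markers. Of 4 hepatocyte markers 3 were above the median of at least 1 array, with summed log2 levels of 18.9 to 20.1 on the A549 arrays and 19.1 to 20.3 on the CRL-5907 arrays. Over all arrays ALB, albumin, was lower in A549 (-1.99) and TTR, transthyretin, higher (1.55). Each was above an array median only in the line where it was higher, and TTR only with hairpin 1. ALB levels of 4.07 to 5.24 in A549 and TTR levels of 4.05 and 4.50 in CRL-5907 lay below the medians. No test is given for these 2 genes for that reason. The part of these markers in the differences between the lines was not tested. All 29 genes passed the level filter, which asks that a gene's brightest array in a comparison lie above that array's median.

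**Figure D1:**
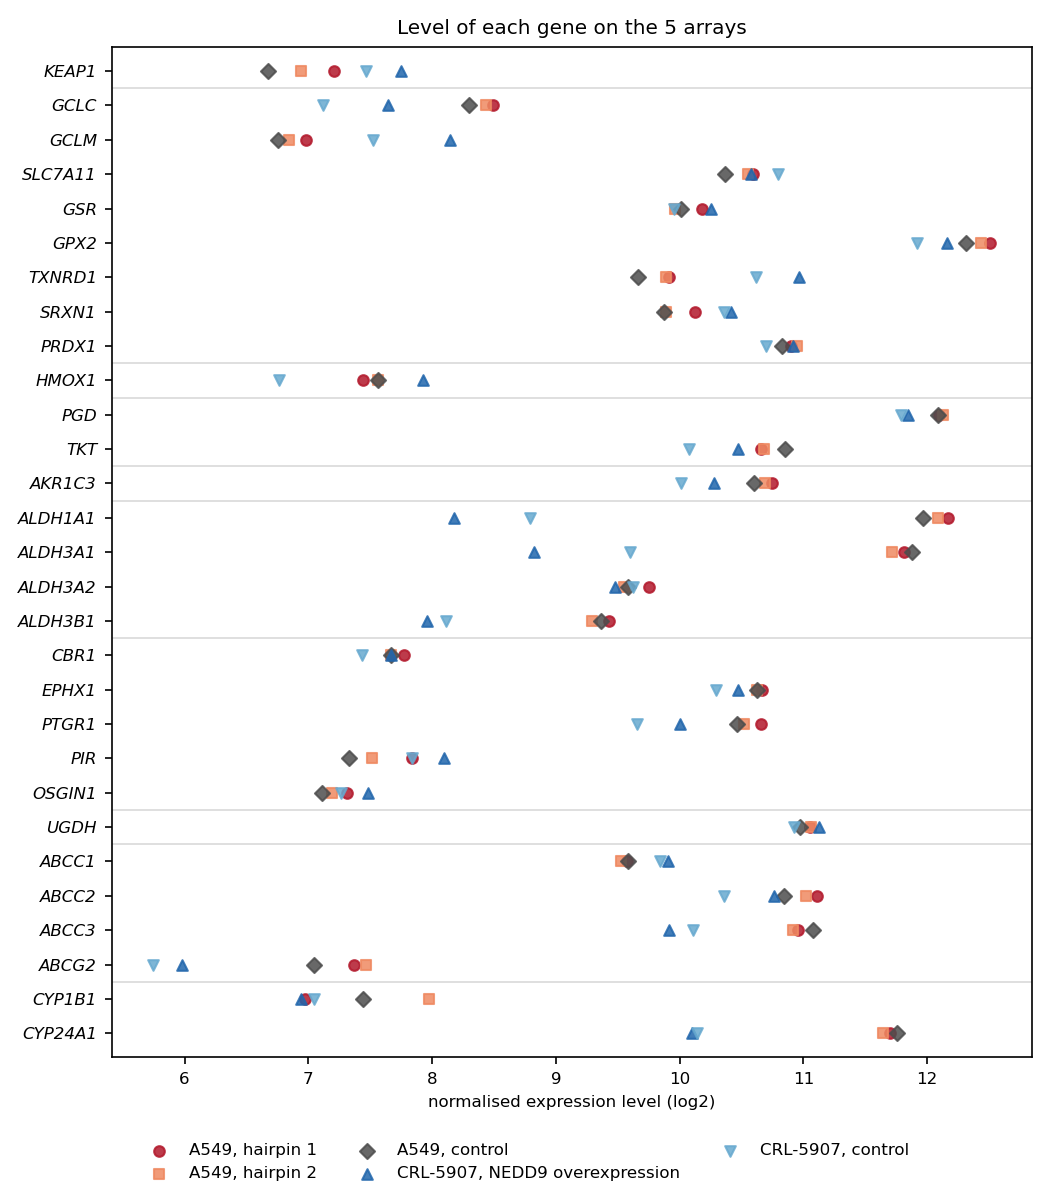
Normalised log2 expression level (x axis) of the 29 genes (rows, grouped by role with grey lines between groups) on each of the 5 arrays, 1 point per array. ALDH1A1, ALDH3A1, ALDH3B1 and CYP24A1 form separate clusters by line, whereas UGDH lies between 10.93 and 11.13 on all arrays; levels of different genes come from different probes and cannot be set against each other.

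The widest differences in the set lay between the lines, and they ran both ways. The aldehyde dehydrogenases ALDH1A1, ALDH3A1 and ALDH3B1, the vitamin D hydroxylase CYP24A1, the transporters ABCG2 and ABCC3 and the glutathione enzyme GCLC were higher in A549, while KEAP1, GCLM, TXNRD1, SRXN1 and ABCC1 were lower there. In limma, with the 3 A549 arrays set against the 2 CRL-5907 arrays and Benjamini-Hochberg adjustment over 7984 genes, 13 of the 29 genes were higher in A549 and 5 were lower at an adjusted p under 0.05. Over all genes tested the same rule called 31.8% higher and 17.7% lower in A549, or 49.5% in either direction. For 14 of the 29 genes all 3 A549 arrays lay above both CRL-5907 arrays, against 41% of genes tested, and for 6 all lay below, against 26.9%. With a further quantile normalization of the arrays the split among the 29 was 9 higher and 8 lower, against 27% and 26.1% of all genes. The spread within a line holds the effect of the NEDD9 manipulations here, so the arrays of a line are not replicates of 1 condition. On the control arrays alone 6 genes were at least 2-fold higher in A549 (9.88% of 7716 genes) and 0 were at least 2-fold lower (5% of 7716 genes), with no test.

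KEAP1, the adaptor that marks NRF2 for breakdown, was lower in A549. Its log2 level was 7.21 with hairpin 1, 6.94 with hairpin 2 and 6.68 on the control in A549, against 7.75 with overexpression and 7.47 on the control in CRL-5907. No A549 array reached a CRL-5907 array. The difference was -0.67 (95% interval -1.11 to -0.22, adjusted p = 0.0266 by limma).

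The 2 subunits of glutamate-cysteine ligase, which makes the first and rate-limiting bond of glutathione, differed in opposite directions. GCLC, the catalytic subunit, had log2 levels of 8.49 and 8.43 with the hairpins and 8.30 on the A549 control, against 7.64 with overexpression and 7.11 on the CRL-5907 control. The A549 arrays were all higher, by 1.03 (interval 0.60 to 1.45, adjusted p = 0.0053 by limma). GCLM, the modifier subunit, had levels of 6.98 and 6.85 with the hairpins and 6.76 on the A549 control, against 8.14 with overexpression and 7.53 on the CRL-5907 control. These A549 arrays were all lower, by -0.98 (interval -1.46 to -0.49, adjusted p = 0.00973 by limma).

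Like GCLM, TXNRD1 and SRXN1 of the thioredoxin system were lower in A549. TXNRD1, the cytosolic thioredoxin reductase, stood at 9.92 and 9.89 with the hairpins and 9.66 on the A549 control, against 10.97 with overexpression and 10.62 on the CRL-5907 control. Its difference was -0.97 (interval -1.31 to -0.63, adjusted p = 0.0031 by limma), with no overlap of the lines. SRXN1, sulfiredoxin, which repairs over-oxidised peroxiredoxins, differed by -0.42 (interval -0.67 to -0.18, adjusted p = 0.0168 by limma). For PRDX1, a peroxiredoxin, GSR, glutathione reductase, and SLC7A11, the cystine importer, the lines overlapped. Their differences were 0.08 (interval -0.13 to 0.30) for PRDX1, -0.05 (interval -0.35 to 0.24) for GSR and -0.18 (interval -0.45 to 0.08) for SLC7A11. GPX2, a selenium glutathione peroxidase, was higher in A549 by 0.38 (interval 0.14 to 0.61, adjusted p = 0.0218 by limma).

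Of the aldehyde dehydrogenases, which oxidise aldehydes to acids, ALDH1A1 and ALDH3A1 differed most among the 29 genes. ALDH1A1, a retinaldehyde-oxidising member, had levels of 12.17 and 12.08 with the hairpins and 11.97 on the A549 control, against 8.18 with overexpression and 8.79 on the CRL-5907 control. On the control arrays this is a 9.04-fold excess in A549, and over all arrays the difference was 3.59 (interval 3.12 to 4.05, adjusted p = 0.000142 by limma). ALDH3A1, which clears aldehydes of lipid peroxidation, had 11.81 and 11.72 with the hairpins and 11.88 on the A549 control, against 8.82 with overexpression and 9.60 on the CRL-5907 control. It differed by 2.59 over all arrays (interval 2.03 to 3.16) and was 4.86-fold higher on the A549 control than on the CRL-5907 control. ALDH3B1 was higher in A549 by 1.33 (interval 1.11 to 1.55). ALDH3A2, the fatty aldehyde dehydrogenase of the endoplasmic reticulum, overlapped between the lines (0.08, interval -0.16 to 0.32).

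CYP24A1, a mitochondrial cytochrome P450 that inactivates vitamin D, varied little within each line. It read 11.70 and 11.64 with the hairpins and 11.76 on the A549 control, against 10.10 with overexpression and 10.14 on the CRL-5907 control. The difference of 1.58 (interval 1.43 to 1.73) had the lowest adjusted p of the 29 genes (5.73e-05 by limma). CYP1B1, a P450 induced through the aryl hydrocarbon receptor, overlapped between the lines (0.47, interval -0.24 to 1.19).

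Efflux transporters differed gene by gene. ABCG2, which exports a broad range of drugs, had levels of 7.37 and 7.47 with the hairpins and 7.04 on the A549 control, against 5.98 with overexpression and 5.75 on the CRL-5907 control. That last value was close to the median of its array, 5.69. A549 was higher by 1.43 (interval 1.05 to 1.81, adjusted p = 0.00116 by limma). ABCC3, an exporter of conjugated organic anions, was higher in A549 by 0.97 (interval 0.75 to 1.20), whereas ABCC1, an exporter of glutathione conjugates, was lower by -0.31 (interval -0.48 to -0.15, adjusted p = 0.0122 by limma). ABCC2, another exporter of conjugates, did not overlap between the lines but missed the threshold (0.43, adjusted p = 0.0525 by limma).

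Smaller excesses in A549 passed the test for PTGR1, an alkenal and prostaglandin reductase (0.72, interval 0.41 to 1.03), AKR1C3, an aldo-keto reductase of steroids and prostaglandins (0.54, interval 0.28 to 0.79), TKT, transketolase (0.46, interval 0.12 to 0.80), PGD, which makes NADPH in the pentose phosphate pathway (0.29, interval 0.18 to 0.40), and EPHX1, microsomal epoxide hydrolase (0.26, interval 0.07 to 0.44). On the control arrays each of these excesses was smaller after a further quantile normalization. There PGD went from 0.30 to 0.13 and EPHX1 from 0.33 to 0.18. AKR1C3 has close relatives whose probes can cross-hybridise, and its value is uncertain for that reason. PIR, an iron-binding nuclear protein, was lower on every A549 array but missed the threshold (-0.41, adjusted p = 0.101 by limma). CBR1, a carbonyl reductase, OSGIN1, an oxidative-stress growth inhibitor, and UGDH, which makes the UDP-glucuronate used in conjugation, had intervals that included 0, of -0.09 to 0.39 for CBR1, -0.43 to 0.09 for OSGIN1 and -0.20 to 0.20 for UGDH.

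**Figure D2:**
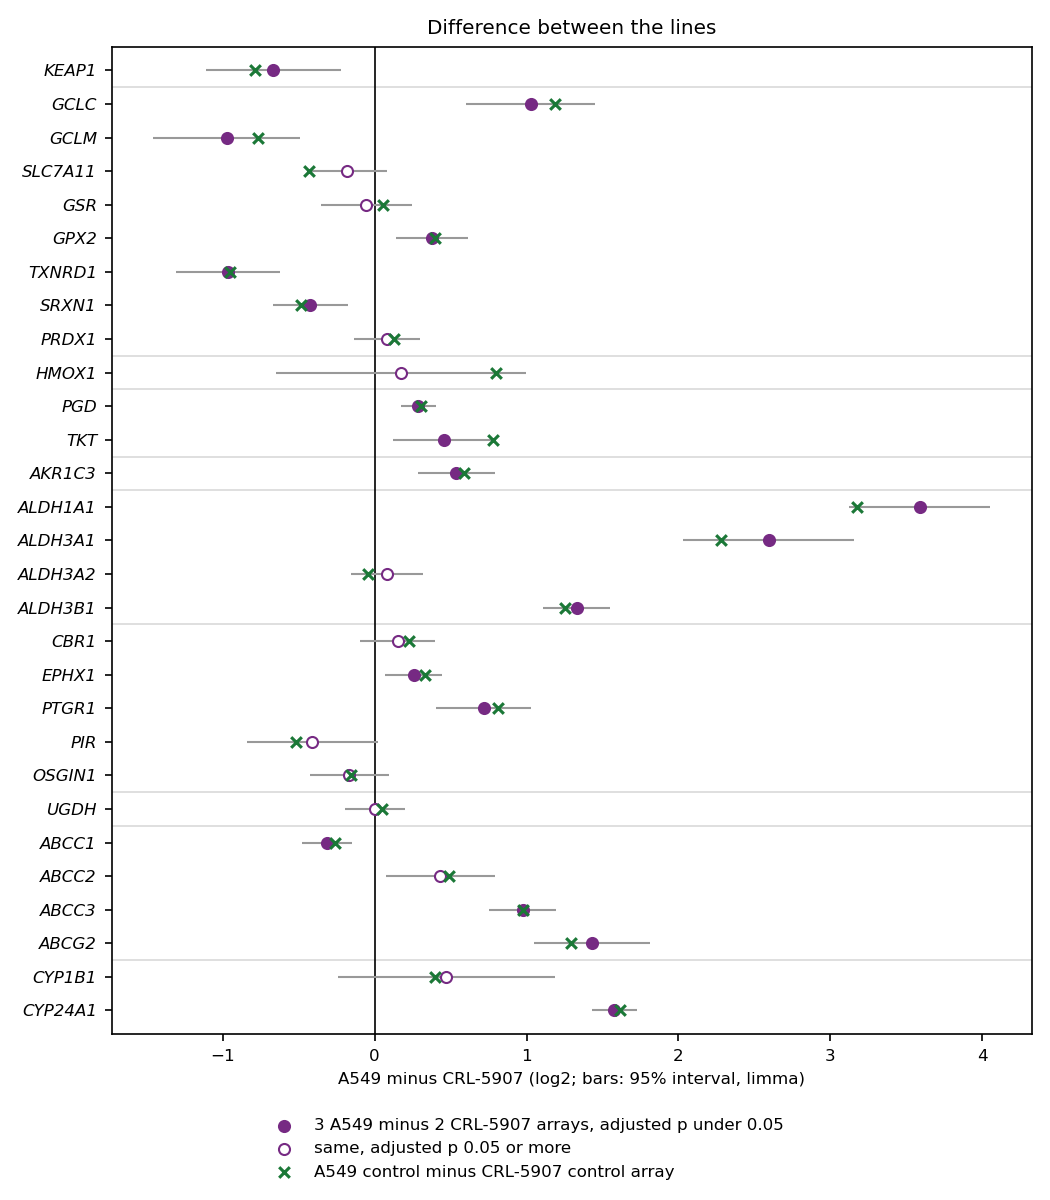
Difference between the lines (x axis, log2, A549 minus CRL-5907) for the 29 genes: circles give the 3 A549 arrays minus the 2 CRL-5907 arrays with 95% limma intervals, filled where the adjusted p was under 0.05, and crosses give the control arrays alone. GCLC at 1.03 and GCLM at -0.98 lie on opposite sides of 0, and ALDH1A1 at 3.59 lies furthest out.

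HMOX1, heme oxygenase, varied more within CRL-5907 than between the lines. Its level was 7.44 and 7.56 with the hairpins and 7.56 on the A549 control, against 7.92 with overexpression and 6.76 on the CRL-5907 control. The overexpressing array was thus above all A549 arrays and its control below all of them. Over all arrays the line difference was 0.17 (interval -0.65 to 1.00).

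Overexpression of NEDD9 in CRL-5907 left 25 of the 29 genes within 1.5-fold of the control array. Of the others, 2 genes exceeded the control by 1.5-fold or more and 2 lay below it by as much, where 3.5% and 0.851% of 7406 genes met these limits. There was 1 array in each condition, so no test was made and the differences have no replicate check. HMOX1 was 2.23-fold higher (log2 difference 1.16) and GCLM 1.54-fold higher (0.62). ALDH3A1 was 1.71-fold lower (-0.78) and ALDH1A1 1.53-fold lower (-0.61). GCLM was under 1.5-fold after a further quantile normalization or removal of the trend of differences with level, and the other 3 kept their side of the limit.

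In all, 21 of the 29 genes were higher by any amount with overexpression and 8 were lower, against 58.7% higher and 37.5% lower among 7406 genes. The median over the 29 genes was 0.22, against 0.05 over all genes past the level filter. After removal of the trend with level 18 were higher and 11 lower, against 48.8% and 51.2% of all genes, and their median was 0.15, against -0.00 over all genes.

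Of the 8 genes of glutathione and thioredoxin synthesis and recycling 7 had values above 0, as did 58.7% of all genes, and GCLM alone passed 1.5-fold. The 7 were GCLM and GCLC (0.53), TXNRD1 (0.35), GSR (0.30), GPX2 (0.24), PRDX1 (0.22) and SRXN1 (0.06, below 0 with the trend removed). SLC7A11, which supplies the cystine for glutathione, was at -0.22. PTGR1 (0.35), PIR (0.26), CBR1 (0.23), OSGIN1 (0.22) and EPHX1 (0.18) were all on the higher side, as were 58.7% of all genes. TKT (0.40) and AKR1C3 (0.27) were higher too, while PGD, beside TKT in the pentose phosphate pathway, was at 0.05. KEAP1 itself was at 0.29.

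All 4 aldehyde dehydrogenases had values below 0 with overexpression, as did 37.5% of all genes. Beside ALDH3A1 and ALDH1A1, ALDH3B1 was at -0.15 and ALDH3A2 at -0.15, well inside 1.5-fold. ABCC3 (-0.19), CYP1B1 (-0.10) and CYP24A1 (-0.04) were also on the lower side, and the other transporters were not, with ABCC2 at 0.40, ABCG2 at 0.23 and ABCC1 at 0.07. The sign of 3 of these differences, those of ABCC1, PGD and SRXN1, changed under another scaling.

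When NEDD9 was knocked down in A549, no gene of the set differed by 1.5-fold. NEDD9 itself did not pass this limit with both hairpins. Its log2 difference was -0.587 with hairpin 1, just past the limit, and -0.411 with hairpin 2, which is 1.33-fold lower. Nor was NEDD9 called by limma (-0.499, interval -1.097 to 0.099, adjusted p = 0.312 by limma). The counts that follow therefore cannot show that the genes do not respond to loss of NEDD9. With both hairpins 0 of the 29 genes were 1.5-fold higher or lower, where 0.709% of 7473 genes were higher and 0.134% lower, and 0 passed 1.5-fold with either hairpin alone. With hairpin 1 alone 2.57% of genes were higher and 0.535% lower by that much, and with hairpin 2 alone 1.35% and 0.482%. limma called 0 of the 29 at an adjusted p under 0.05 (lowest adjusted p = 0.276, 1 residual degree of freedom) and 0% of all 7473 genes. At an unadjusted p under 0.05 it gave 4 of the 29 (SLC7A11, TXNRD1, TKT and ABCG2) and 17.5% of all genes. By any amount, 17 genes were higher with both hairpins and 6 lower with both, against 53.8% and 21.5% of all genes. The median over the 29 genes was 0.17 with hairpin 1 and 0.08 with hairpin 2, against 0.10 and 0.04 over all genes past the filter. A further quantile normalization shifted the median of all genes by -0.10 for hairpin 1, after which the 29 genes had medians of 0.09 and 0.04, against -0.003 and -0.025 over all genes. The 2 hairpins share 1 control array, and a deviation of that array would move both differences.

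KEAP1 had the largest mean difference of the 29, 0.40 ± 0.18 (SD, n = 2), with 0.53 for hairpin 1 and 0.27 for hairpin 2. Its interval by limma was wide (-0.47 to 1.27, adjusted p = 0.413). ABCG2 followed at 0.38 ± 0.07, with 0.33 and 0.42 for the hairpins (interval 0.05 to 0.71, adjusted p = 0.278 by limma). PIR was at 0.35 ± 0.23, with 0.51 and 0.19. TXNRD1 was closer between the hairpins at 0.24 ± 0.02 (interval 0.10 to 0.39, adjusted p = 0.276 by limma), as was SLC7A11 at 0.21 ± 0.03 (interval 0.04 to 0.38, adjusted p = 0.276 by limma). ABCC2 was at 0.22 ± 0.06.

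The remaining glutathione genes had small positive means: GCLC 0.16 ± 0.04, GCLM 0.16 ± 0.09, GPX2 0.16 ± 0.05, SRXN1 0.13 ± 0.17, PRDX1 0.10 ± 0.04 and GSR 0.06 ± 0.16 (SD, n = 2). SRXN1 and GSR rested on hairpin 1, at 0.25 for SRXN1 and 0.17 for GSR, against 0.02 and -0.05 with hairpin 2. On the lower side TKT was at -0.18 ± 0.02 (interval -0.32 to -0.04, adjusted p = 0.276 by limma), ABCC3 at -0.15 ± 0.03, ALDH3A1 at -0.11 ± 0.07 and CYP24A1 at -0.09 ± 0.04. The knockdown difference of HMOX1 was -0.06 ± 0.08 and that of ALDH1A1 0.16 ± 0.06, against overexpression differences of 1.16 and -0.61.

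The hairpins had opposite signs for CYP1B1, GSR, ALDH3A2 and ALDH3B1, with the widest gap for CYP1B1. Its level was 6.97 with hairpin 1 and 7.97 with hairpin 2, against 7.44 on the A549 control, so the differences were -0.47 and 0.54. The gap between the hairpins for CYP1B1 was wider than for 95% of genes past the filter, whose gaps were under 0.34, and the median gap was 0.09 over all these genes and 0.09 over the 29. CBR1 had exactly equal values of 7.66 with hairpin 2, on the A549 control and with overexpression, and EPHX1 equal values of 10.62 with hairpin 2 and on the A549 control. RMA can produce such ties, and the differences of 0.00 do not show that these genes were unchanged.

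**Figure D3:**
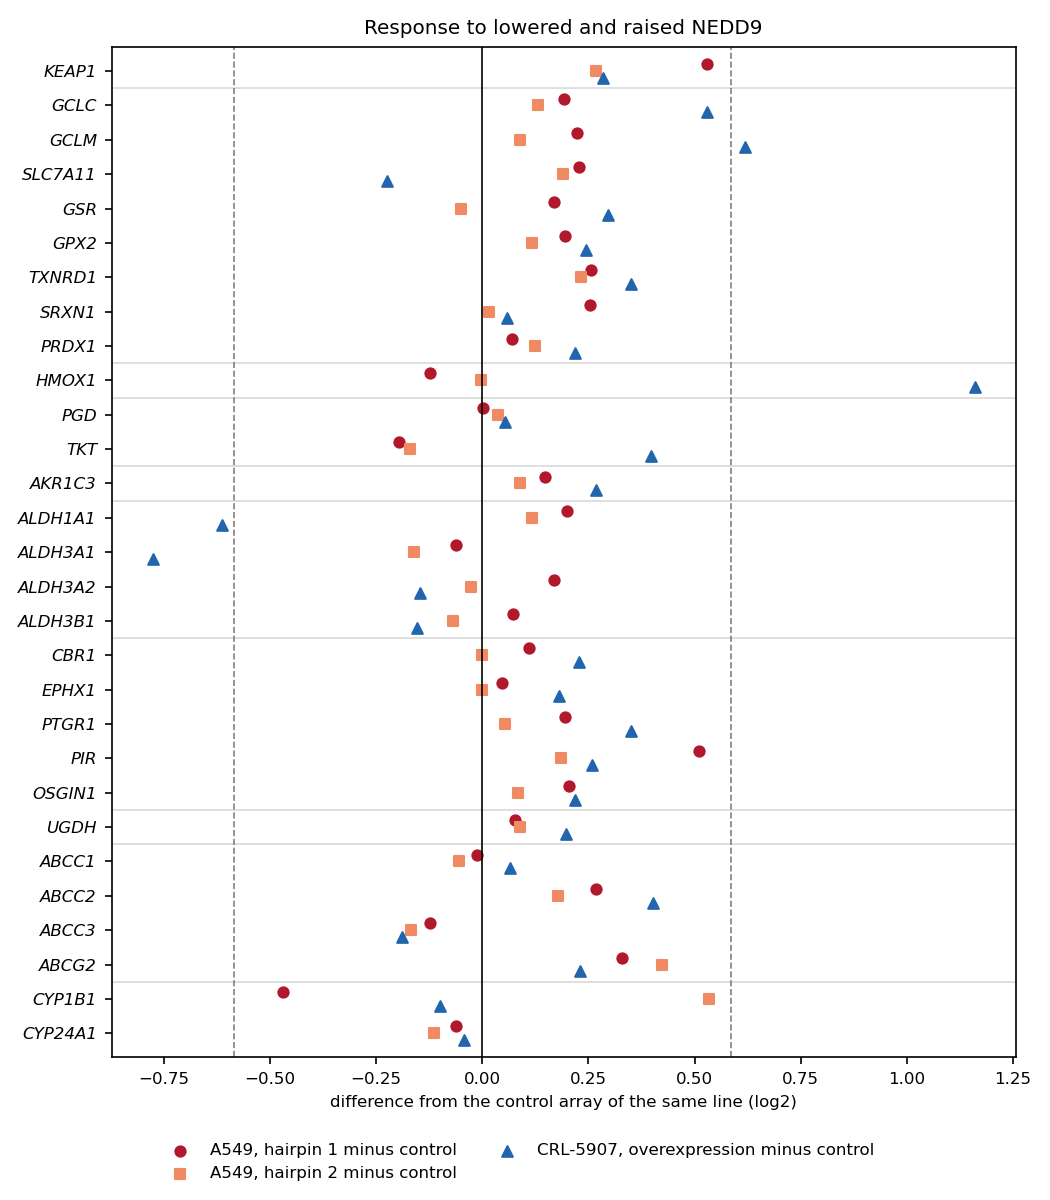
Difference from the control array of the same line (x axis, log2) for the 29 genes with hairpin 1, hairpin 2 and NEDD9 overexpression, with dashed lines at 1.5-fold. All hairpin points lie between -0.47 and 0.54, inside the dashed lines, while HMOX1 (1.16), GCLM (0.62), ALDH1A1 (-0.61) and ALDH3A1 (-0.78) pass them with overexpression.

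The knockdown and overexpression comparisons share no array, and by sign alone 5 of the 29 genes had opposite differences when NEDD9 was lowered and raised. With both hairpins and with overexpression 15 of the 29 genes were higher in all, against 35.2% of 6843 genes past the filter in both lines, and 3 were lower in all, against 10.4%. By more than 0.0867 in all 3 differences, the median gap between the hairpin arrays, 9 were higher, against 18.3% of genes, and 1 was lower, against 3.3%. Of the 9, GCLC, GCLM and AKR1C3 had mean knockdown differences under 0.0867 once the trend with level was removed. Lower with both hairpins and higher with overexpression by any amount were 3 genes, against 10.1%: HMOX1, TKT and ABCC1. HMOX1 was at only -0.002 with hairpin 2 and ABCC1 at -0.01 with hairpin 1, both inside the median gap between the hairpins. The reverse held for 2 genes, against 16.5%: SLC7A11 and ALDH1A1. None of these 5 genes passed 1.5-fold in both lines. Under centring 15 of the 29 were higher with both hairpins and 7 lower, against 45.4% and 33.9% of all genes past the filter. Once the trend with level was removed, these counts were 14 and 9, against 37.7% and 41.3%.

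**Figure D4:**
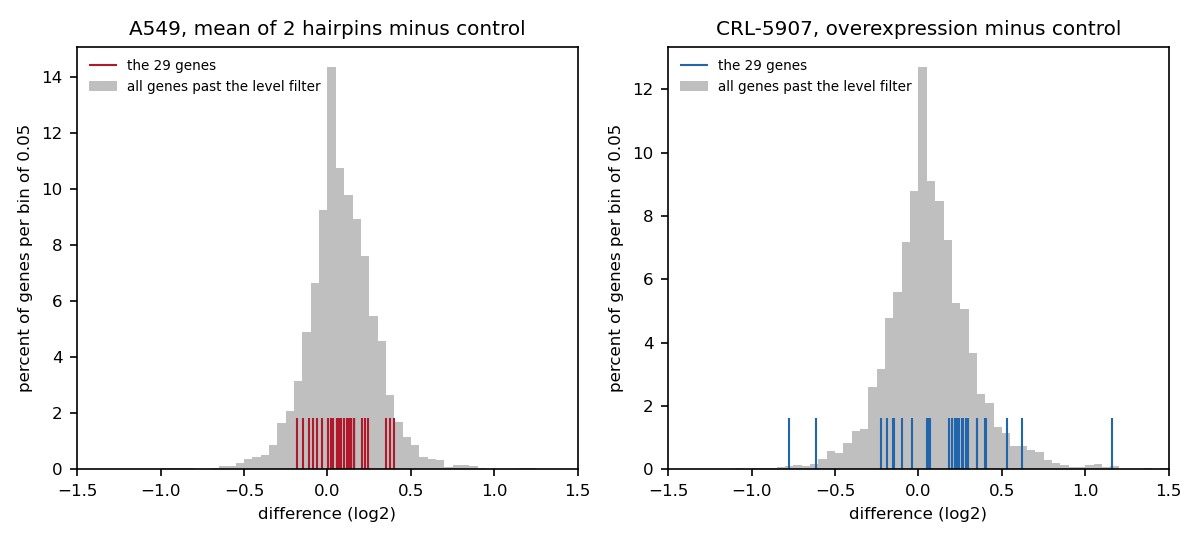
Distribution of log2 differences over all genes past the level filter (grey bars, percent of genes per bin of 0.05) with the 29 genes as vertical ticks, for the mean of the 2 hairpins minus control in A549 (left) and overexpression minus control in CRL-5907 (right). The ticks run from -0.18 to 0.40 on the left and from -0.78 to 1.16 on the right; 1 gene on the left and 14 on the right lie outside the axis range.

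Further genes of the pathway were read from lists set up beside the 41. Of 25 other NRF2 targets 14 were measured, and all 14 passed the filter. With both hairpins 10 were higher by any amount and 0 lower, against 53.8% and 21.5% of all genes. At 1.5-fold 0 were higher or lower, against 0.709% and 0.134% of all genes. The largest were GLRX, glutaredoxin (0.42 and 0.28), and PRDX6, a peroxiredoxin (0.21 and 0.28). With overexpression 9 were higher and 5 lower, against 58.7% and 37.5% of all genes. FTL, ferritin light chain, alone passed 1.5-fold (0.90), as did 3.5% of all genes on the higher side, although its many processed copies make its probes uncertain. ME1, malic enzyme (0.49), GLRX (0.46) and PRDX6 (0.32) followed. Between the lines limma called 3 higher in A549 and 2 lower, against 31.8% and 17.7% of all genes, the largest difference being RXRA, a nuclear receptor partner (-1.55 on the control arrays).

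Among 16 regulators of NRF2, 11 were measured and 9 passed the filter over all arrays. limma called 2 higher and 4 lower in A549, where it called 31.8% of all genes higher and 17.7% lower. The lower ones included BACH1, the repressor that competes for the same elements (-0.98, adjusted p = 0.00175 by limma). They also included MAFF, a small MAF protein that can pair with NRF2 (-0.49). MAFF passed the filter only through CRL-5907, where it was higher, and its A549 levels of 5.42 to 5.49 lay below the array medians. Its call therefore lends no support to a difference. NFE2L1, the NRF2 relative, was higher in A549 (0.48, adjusted p = 0.014 by limma). 0 of the regulators past the filter reached 1.5-fold with both hairpins or with overexpression. Few genes did so at all: 0.709% of all genes were higher and 0.134% lower with both hairpins, and 3.5% and 0.851% with overexpression. Of 29 glutathione S-transferases and other conjugating enzymes 17 were measured. Of the 11 past the filter in A549 and the 11 in CRL-5907, 0 reached 1.5-fold with both hairpins or with overexpression, beside the same small shares of all genes. Of the 13 past the filter over all arrays limma called 7 higher and 4 lower in A549 (31.8% and 17.7% of all genes). GSTT1 (-1.77) and GSTO2 (-1.16), both glutathione transferases, were lower on the A549 control than on the CRL-5907 control. GGCT, a glutathione breakdown enzyme, was higher (1.01). GSTT1 and GSTM3 among the lower genes, and GGCT and GSTZ1 among the higher, passed the filter only through the line where they were higher. In the other line they lay below the array medians, with GSTT1 at 5.01 to 5.24 in A549 and GGCT at 5.17 and 5.40 in CRL-5907. The limma calls of these genes therefore lend no support to a difference.

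The upstream receptors for the P450 genes were read in the same way. AHR, the aryl hydrocarbon receptor, had levels of 9.35 and 9.50 with the hairpins, against 9.31 on the A549 control. With overexpression it was at 8.96, against 9.08 on the CRL-5907 control. Over all arrays AHR was higher in A549 (0.37, adjusted p = 0.0213 by limma). VDR, the vitamin D receptor, was picked out after its values were seen because it did not pass the filter. Its levels were 5.06 and 5.35 with the hairpins, against 5.53 on the A549 control. With overexpression VDR was at 4.90, against 4.94 on the CRL-5907 control. Of the vitamin D pathway genes past the filter, CYP2R1 was at 0.39 and 0.34 with the hairpins and -0.41 with overexpression. Between the lines CYP2R1 was higher in A549 (1.26, adjusted p = 0.00289 by limma) and RXRA lower (-1.43, adjusted p = 0.000422 by limma).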

How the data were processed

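The authors deposited 1 table of log2 expression values for 22011 features on 5 Affymetrix exon arrays, for which the submitters' processing notes name RMA and Affymetrix Power Tools; versions are not given in the sources used here. RMA subtracts background, equalises the arrays' quantiles and averages probes robustly on the log2 scale, which pulls the distributions together and can give equal values on several arrays. The base of the logarithm follows from the values. Per the labels' protocols, ribosomal RNA was removed from Trizol-extracted total RNA before amplification and biotin labelling.

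Features were named by the platform annotation: 14432 had 1 gene symbol, 2408 several and 5171 none. Where a gene had several features the brightest by mean was used. Samples were grouped by title. The description of the hairpin 2 array names another gene than its title, and the title was followed. Genes were tested when their brightest array exceeded that array's median over features with 1 symbol (the 50th percentile).

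limma 3.58.1 in R 4.3.3 (lmFit, eBayes with a trend, Benjamini-Hochberg adjustment, two-sided) was fitted over all such genes, with 1 residual degree of freedom for knockdown and 3 for the lines. It assumes that single arrays vary like the others. Overexpression and the control arrays of the lines had 1 array each and no test. The fits were also run on simulated data with changes of at least 2-fold and noise drawn from the gap between the hairpins. Smaller differences and the spread within a line were not simulated, and no result here rests on that run. Promoter windows came from RefSeq, GRCh38.p14. Coordinates of features are not given because the array's build is not given in the sources used here.

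The 41 genes, the further lists and the tests were chosen with earlier results of these data known. All measured members could be named, and of each further list up to 4 genes per comparison with the largest difference. Alternatives were 3 other scalings (median centring, repeated quantile normalization, removal of a lowess trend), averaging the features of a gene, dropping the level filter or raising it to the 75th percentile, other thresholds, and leaving out arrays.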

Additional observations from a re-analysis of the deposited data

Results flagged for a closer look

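In all, 10 of the 29 genes differed from control in the same direction with both hairpins in A549 and with overexpression in CRL-5907, each time by more than 0.0867, the median gap between the hairpin arrays. Of these 9 were higher, where 18.3% of 6843 genes past the filter in both lines met the same limit, and 1 was lower, against 3.3%. The 10 genes were picked by this rule, so their shared sign under opposite manipulations of NEDD9 is not a separate result. The mean knockdown difference was 0.40 for KEAP1, 0.38 for ABCG2, 0.35 for PIR, 0.24 for TXNRD1, 0.22 for ABCC2, 0.16 for GCLC, 0.16 for GCLM, 0.16 for GPX2, 0.12 for AKR1C3 and -0.15 for ABCC3. Overexpression gave 0.29 for KEAP1, 0.23 for ABCG2, 0.26 for PIR, 0.35 for TXNRD1, 0.40 for ABCC2, 0.53 for GCLC, 0.62 for GCLM, 0.24 for GPX2, 0.27 for AKR1C3 and -0.19 for ABCC3. The count holds for the values as deposited. With the trend with level removed, the mean knockdown differences of GCLC (0.065), GCLM (0.070) and AKR1C3 (0.054) were below 0.0867. Those of the other genes named stayed beyond it. The contrast between the lines was not tested, and the overexpression differences rest on 1 array each. All genes past the filter had a median above 0 in these comparisons, of 0.10 with hairpin 1, 0.04 with hairpin 2 and 0.05 with overexpression, and the part of this offset in the shared sign was not tested.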

How the results depend on the processing

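No paired analysis was possible because only the hairpins carry replicate numbers and each control is 1 array. No member was 1.5-fold away with both hairpins, or called by limma for knockdown, under any alternative run; over all genes limma called 10 for knockdown once the trend with level was removed, with 0 members among them. The median knockdown difference of 0.10 became 0.036 with the trend removed, and 0.083 to 0.169 without 1 hairpin. With overexpression the 2 higher members became 1 after quantile normalization, 1 with the trend removed and 1 at a 2-fold threshold, where the 2 lower members became 0; the median of 0.22 became 0.14 after quantile normalization and 0.15 with the trend removed. Between the controls, 0 members lower in A549 became 1 (centred arrays, quantile normalization and trend removed) and 3 at 1.5-fold, the 6 higher became 11 at 1.5-fold, and the median of 0.33 became 0.22 (centred), 0.18 (quantile) and 0.22 (trend removed). In the limma comparison of the lines, the 5 lower members became 8 under each of these 3 scalings, and leaving out 1 array at a time gave 2 to 6 lower and 10 to 15 higher (2 lower without hairpin 2, 3 without the overexpression array). Leaving out the control or overexpression arrays was chosen after seeing the data. Centring shifted the median of all genes between the control arrays by -0.11. Of 87 member differences 74 kept their sign in every setting run. limma could not be run for knockdown without 1 hairpin, since no residual degree of freedom remains. Background detection per feature is unknown, and whether background bears on a level near an array's median, as for ABCG2 in CRL-5907, was not tested.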
